A study of Mus musculus with 5 samples.

Results

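The Bcl2 family decides whether a cell's mitochondria release the proteins that start apoptosis. Its 10 core genes were followed here in quiescent melanocyte stem cells (McSC) and in melanocytes of the mouse hair follicle. The genes were taken by symbol after mapping the table's Entrez identifiers, and all 10 were found among 24100 genes: 4 survival genes (Bcl2, Bcl2l1, Bcl2l2, Mcl1) and 6 death genes (Bax, Bak1, Bid, Bcl2l11, Bbc3, Pmaip1).

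Sorted cells came from the back skin of male mice on a mixed CD1 and C57Bl6J background, and their poly-A RNA was sequenced without strand. Per the labels, the 2 quiescent McSC libraries came from Dct-eGFP+ mice in second telogen, the resting phase of the hair cycle, at postnatal days 60 and 62, and pooled 4 males each. The 3 melanocyte libraries came from Dct-EGFP+ Lef1-RFP+ mice in full anagen, the growth phase, at postnatal day 10, and pooled 3, 2 and 4 males. Dct, whose promoter drives the green reporter, is a pigment lineage gene. Both sorts took green cells of medium to low integrin α6 that lacked CD31, CD45, CD140a, Sca1 and CD34. The melanocyte sort also required the Lef1 reporter and c-Kit. Age, hair cycle phase, reporter alleles and gate changed together between the groups and cannot be told apart. In such bulk libraries, fewer cells of a type and less RNA per cell cannot be told apart either.

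As background, survival members such as BCL2, BCL-xL (Bcl2l1), BCL-w (Bcl2l2) and MCL1 hold the pore-forming members BAX and BAK (Bak1) in check at the outer mitochondrial membrane. BH3-only members such as BIM (Bcl2l11), PUMA (Bbc3), NOXA (Pmaip1) and BID report stress or lack of growth factor, and either bind the survival members or activate BAX and BAK. In the pigment lineage, BCL2 is needed for the upkeep of McSC, and mice without it turn gray. MITF, the lineage's master regulator, is known to drive Bcl2.

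Total counts ranged from 17512381 to 124530834 per library. Levels are TMM-normalised CPM, counts scaled to a common library size. Markers of the hair follicle and shaft were called toward melanocytes for 15 of 15 genes, with summed levels of 22.1 to 72.6 CPM in quiescent McSC against 3935 to 5545 CPM in melanocytes; Krt34 had no count in quiescent McSC. Fibroblast and dermal papilla markers were higher for 12 of 12 genes (92.9 to 109.7 against 2056 to 5694 CPM). Of 9 tested endothelial markers 8 were higher in melanocytes and 1 lower, at 9.77 to 12.1 against 24.9 to 56.1 CPM, with Cldn5 at no count in quiescent McSC. Of 12 tested immune markers 5 were higher and 2 lower (27.7 to 36.3 against 45.1 to 80.5 CPM), and of 9 tested muscle and pericyte markers 8 were higher and 1 lower (93.6 to 94.9 against 183 to 362 CPM). For keratinocytes 6 of 13 markers were called toward each group (3655 to 4874 against 4434 to 5804 CPM). Melanocyte lineage markers were lower in melanocytes for 4 of 10 genes and not called for 6, with sums of 21505.5 and 22764 CPM in the resting stem cells against 3159 to 19986 CPM in melanocytes. Melanocyte replicate 1 stood apart, with Dct at 1073 CPM against 5777 and 6505 CPM in replicates 2 and 3, and with Col1a2, a fibroblast collagen gene, at 1027 CPM against 355 and 307 CPM. With that library left out, Dct was called toward quiescent McSC (-0.83, edgeR adjusted p = 0.0081) and Pmel, a melanosome gene, toward melanocytes (1.17, edgeR adjusted p = 0.00098). The part of these other cells in the results below was not tested.

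The stretch of DNA just before the transcription start is shown for 3 members, because Bcl2 and Mcl1 had the largest differences toward quiescent McSC and Bak1 was the pore-forming gene called toward melanocytes. The sequences are 250 bases up to the RefSeq start on GRCm38.p6 (mm10), written 5′ to 3′ along the gene, and capitals mark matches to the motifs searched. The Mcl1 window, the only one of this gene in the table, ends at a start inside the gene span given below, which begins further upstream.
Bcl2, chr1:106714291-106714540, minus strand: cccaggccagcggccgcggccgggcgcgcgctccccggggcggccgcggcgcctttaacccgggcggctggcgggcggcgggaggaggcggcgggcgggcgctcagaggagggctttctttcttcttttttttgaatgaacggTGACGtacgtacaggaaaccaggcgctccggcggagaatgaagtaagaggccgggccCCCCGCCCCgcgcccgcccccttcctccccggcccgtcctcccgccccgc
Mcl1, chr3:95658471-95658720, plus strand: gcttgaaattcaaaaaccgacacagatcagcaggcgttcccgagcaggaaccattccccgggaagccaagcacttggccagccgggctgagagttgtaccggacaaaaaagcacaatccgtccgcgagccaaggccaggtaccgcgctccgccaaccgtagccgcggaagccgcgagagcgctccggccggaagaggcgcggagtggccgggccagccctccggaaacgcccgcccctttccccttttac
Bak1, chr17:27028628-27028877, minus strand: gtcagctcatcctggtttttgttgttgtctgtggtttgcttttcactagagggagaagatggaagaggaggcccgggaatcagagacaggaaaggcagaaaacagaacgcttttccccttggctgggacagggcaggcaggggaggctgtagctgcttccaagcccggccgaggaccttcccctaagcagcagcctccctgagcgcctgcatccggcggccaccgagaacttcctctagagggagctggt
The search covered 11 motifs on both strands in the 14 windows of the 9 members matched in the RefSeq promoter table, and in 32851 windows of all genes. The motifs were AP-1 (TGACTCA), CRE (TGACGTCA), its half-site (TGACG, which the CRE contains), 2 E-boxes (CACGTG and CATGTG), an extended E-box (TCACGTGA, which contains CACGTG), E2F (TTTGGCGC), ETS (CCGGAAGT), EGR (GCGTGGGCG), STAT (TTCNNNGAA) and a GC box (GGGGCGGGG). Bcl2 held a CRE half-site, 107 bases before the start, and a GC box, motifs found in 17.8% and 10.4% of all windows. The Mcl1 and Bak1 windows held none of the 11. Of the 9 members 7 held a match to at least 1 motif, and 5 of the 11 motifs were matched. The GC box was the most frequent, in 6 members (Bcl2, Bcl2l2, Bcl2l11, Bid, Bax and Bbc3). The CRE half-site was in 2 members, Bcl2 and Bbc3. Bax and 1 window of Bbc3 held CACGTG (6.02% of windows), which in Bax was part of the extended E-box (0.785% of windows), and Bcl2l1 held CATGTG (12.25% of windows). The percentages are of single windows, while a member with several windows was counted once, so these counts and percentages are not comparable. The share of all genes with a match was not computed. These matches describe letters only.

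Of the 10 members, 5 were higher in quiescent McSC (Bcl2, Bcl2l2, Mcl1, Bcl2l11 and Bbc3), 2 were higher in melanocytes (Bak1 and Pmaip1) and 3 were not called (Bcl2l1, Bax and Bid). A gene was called when its p-value, adjusted over all 16953 genes tested in edgeR's quasi-likelihood test, was below 0.05. All 10 members passed the filter on low counts. The comparison was broad: 55.4% of all genes tested were called, 26.2% higher in quiescent McSC and 29.1% higher in melanocytes, so a called member is not unusual in itself. Restricted to genes of at least 5 CPM in a group, 62.2% were called. The median log2 fold change, melanocyte minus quiescent McSC throughout, was -0.55 over the 10 members against 0.03 over all genes tested. It was -2.10 over the 4 survival genes, of which 3 were called toward quiescent McSC and Bcl2l1 was not called. Over the 6 death genes it was 0.16, with 2 called in each direction. In 8 of the 10 members the levels of the groups were fully separate (5 higher in quiescent McSC, 3 in melanocytes). Over the genes tested 74.5% were separate, 36.4% higher in quiescent McSC and 38.1% in melanocytes. With library size as the only scaling the median of all genes moved to 0.26 and the share of calls toward melanocytes from 52.6% to 63.7%. Under that scaling Bbc3 lost its call (adjusted p = 0.065) and Bax gained one toward melanocytes (adjusted p = 0.0373).

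**Figure D1:**
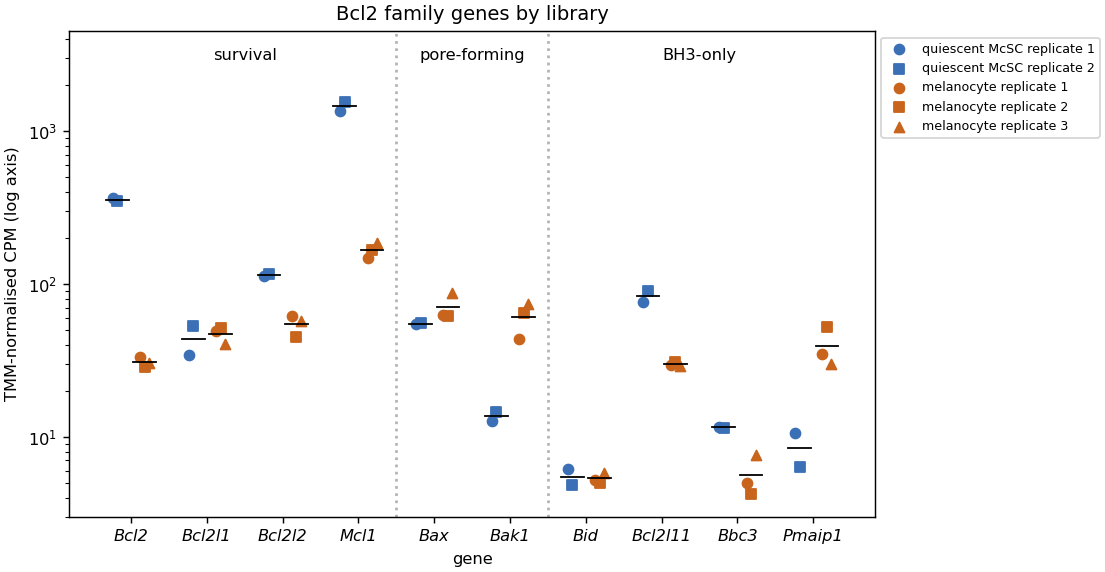
TMM-normalised CPM (log axis) of the 10 Bcl2 family genes in each of the 2 quiescent McSC (blue) and 3 melanocyte (orange) libraries, with the group mean as a line. Bcl2 and Mcl1 lie far higher in quiescent McSC, Bak1 and Pmaip1 higher in melanocytes, and the groups overlap for Bcl2l1 and Bid.

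Among the survival genes, Mcl1 and Bcl2 showed the widest gaps. Mcl1 encodes a short-lived survival protein that binds BAK, BIM and NOXA (chromosome 3, 95656944 to 95663179). It stood at 1355 and 1544 CPM in quiescent McSC replicates 1 and 2, and at 147, 168 and 185 CPM in melanocyte replicates 1 to 3. Both quiescent McSC libraries were thus above all 3 melanocyte libraries, with little spread inside each group. The means were 1449 ± 134 CPM (SD, n = 2) and 166 ± 19.0 CPM (SD, n = 3), a log2 fold change of -3.12 ± 0.17 SE (edgeR adjusted p = 7.53e-05), or 8.71-fold higher in quiescent McSC.

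Bcl2, the founding member of the family (chromosome 1, 106538176 to 106714290), read 363 and 346 CPM in quiescent McSC against 33.4, 28.6 and 30.3 CPM in melanocytes. The 5 libraries fell into separate groups with no overlap. Its log2 fold change was -3.53 ± 0.12 (edgeR adjusted p = 3.65e-05), or 11.5-fold higher in quiescent McSC. Of all genes tested, 4.2% were called at least 8-fold higher in quiescent McSC, and Bcl2 and Mcl1 were the 2 members among them. Melanocyte replicate 1, which was low in Dct, had the highest Bcl2 level of its group and the lowest Mcl1 level. Without that library the log2 fold changes were -3.59 for Bcl2 and -3.04 for Mcl1.

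Bcl2l2, which encodes the survival protein BCL-w (chromosome 14, 54883366 to 54890858), read 113 and 117 CPM in the quiescent libraries and 61.7, 44.7 and 57.2 CPM in melanocytes. The groups were separate and the difference was smaller than for Bcl2 and Mcl1, at -1.08 ± 0.15 on the log2 scale (edgeR adjusted p = 0.00181). Bcl2l1, the gene of BCL-xL (chromosome 2, 152758732 to 152833803), read 34.2 and 53.3 CPM in the quiescent libraries and 49.5, 51.7 and 40.6 CPM in melanocytes. Its melanocyte libraries all lay between the 2 quiescent McSC libraries. The log2 fold change of Bcl2l1 was 0.11 with a 95% interval of -0.42 to 0.64 (edgeR adjusted p = 0.68), so a change of the size seen for Bcl2l2 lay outside the interval. Counts per gene do not separate the long and short forms of Bcl2l1, Mcl1 or Bcl2l11, some of which act in opposite ways.

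The pore-forming genes were both at higher mean level in melanocytes, and 1 of them was called. Bak1 (chromosome 17, 27019812 to 27028627) read 12.7 and 14.6 CPM in the quiescent libraries and 44.0, 64.9 and 73.7 CPM in melanocytes. Every melanocyte library was about 3-fold or more above both quiescent McSC libraries. The means were 13.7 ± 1.35 CPM (SD, n = 2) and 60.9 ± 15.3 CPM (SD, n = 3), and the log2 fold change was 2.15 ± 0.25 (edgeR adjusted p = 0.000859). Exons of the opposite-strand gene Ggnbp1 cover 25.5% of the exonic bases of Bak1, and without strand their reads cannot be told apart. Ggnbp1 itself differed the other way, at 28.3 ± 5.32 CPM in the quiescent libraries and 8.85 ± 3.92 CPM in melanocytes (edgeR adjusted p = 0.0147), a call that ended without quiescent McSC replicate 2 (0.0895).

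Bax (chromosome 7, 45461695 to 45466903) read 54.8 and 55.4 CPM in the quiescent libraries and 62.7, 61.98 and 87.4 CPM in melanocytes. The groups did not overlap, but melanocyte replicate 3 stood well above the other two of its group. The log2 fold change of Bax was 0.36 with a 95% interval of -0.07 to 0.79, which did not pass (edgeR adjusted p = 0.132). The Bax transcript was therefore present in both groups, and a difference toward melanocytes of up to 0.79 on the log2 scale was not excluded. Bak1, by contrast, was far lower in quiescent McSC.

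The BH3-only genes went both ways. Bcl2l11, the gene of BIM, which binds every survival member and responds to loss of growth factor (chromosome 2, 128126038 to 128162547), read 76.0 and 90.1 CPM in the quiescent libraries and 29.6, 30.7 and 29.2 CPM in melanocytes. The 3 melanocyte libraries were almost equal. The log2 fold change was -1.48 ± 0.12 (edgeR adjusted p = 0.000229), so this death gene moved with Bcl2 and Mcl1 and not with Bak1. Bbc3, the gene of PUMA, a classical target of p53 (chromosome 7, 16308398 to 16318334), read 11.6 and 11.4 CPM against 5.01, 4.21 and 7.59 CPM. Its groups were separate, at -1.05 ± 0.29 (edgeR adjusted p = 0.0243). Bbc3 was no longer called when quiescent McSC replicate 1 (adjusted p = 0.108), quiescent McSC replicate 2 (0.103) or melanocyte replicate 2 (0.0511) was left out.

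Pmaip1, the gene of NOXA, a selective partner of MCL1, was the BH3-only gene that was higher in melanocytes. It read 10.7 and 6.30 CPM in the quiescent libraries and 34.9, 52.5 and 30.05 CPM in melanocytes. The groups did not overlap although each was spread widely. The log2 fold change was 2.21 ± 0.35 (edgeR adjusted p = 0.00268), or 4.63-fold. Bid, whose protein links death receptors to mitochondria after cleavage by caspase 8 (chromosome 6, 120893119 to 120917062), had the lowest group mean CPM of the members in both groups, although Bbc3 lay below it in melanocyte replicates 1 and 2. Bid read 6.11 and 4.87 CPM in the quiescent libraries and 5.23, 4.96 and 5.83 CPM in melanocytes. These ranges overlapped, and the 95% interval of the log2 fold change was -0.63 to 0.55 (edgeR adjusted p = 0.896). Exons of Bcl2l13, on the opposite strand, cover 17.7% of the exonic bases of Bid, and Bcl2l13 was the more abundant gene (83.8 and 121 CPM on average), so reads counted for Bid are uncertain. Other members share exonic bases with genes that were not counted. The same-strand genes Gm20521 and Gm45808 cover 13.3% of Bcl2l2 and 12.2% of Bax. The opposite-strand gene D630008O14Rik covers 6.09% of Bcl2.

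**Figure D2:**
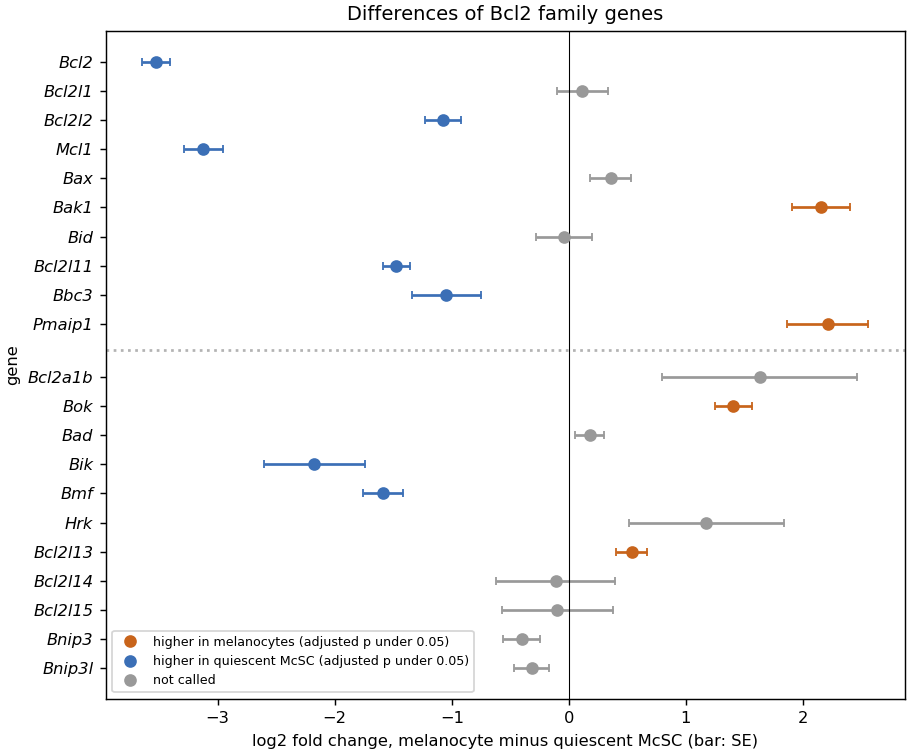
Log2 fold change (melanocyte minus quiescent McSC, bars are SE) of the 10 members (top) and of the 11 tested other family genes (bottom), coloured by call in edgeR's quasi-likelihood test. The largest differences toward quiescent McSC are Bcl2 (-3.53) and Mcl1 (-3.12), and the largest called differences toward melanocytes are Pmaip1 (2.21) and Bak1 (2.15).

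To compare levels between genes, CPM was divided by the length of each gene's exons in kb. The annotation used for counting is not given, so these lengths may differ from the exons that were counted. In quiescent McSC Mcl1 led with 424 ± 39.2 CPM per kb, followed at a distance by Bcl2 (38.7 ± 1.29), Bax (35.0 ± 0.239) and Bcl2l2 (25.8 ± 0.509). Below them came Bcl2l11 (10.3 ± 1.24) and Bcl2l1 (9.53 ± 2.95), whose libraries overlapped, then Bak1 (5.68 ± 0.559) and Bbc3 (5.42 ± 0.0709), which overlapped too. Pmaip1 (3.10 ± 1.13) and Bid (1.55 ± 0.248) were lowest. In melanocytes Mcl1 (48.7 ± 5.56) and Bax (44.9 ± 9.19) overlapped at the top. Bak1 (25.3 ± 6.35) followed and overlapped with Pmaip1 (14.3 ± 4.32), which in turn overlapped with Bcl2l2 (12.2 ± 1.97); Bcl2l2 overlapped with Bcl2l1 (10.3 ± 1.29). At the lower end Bcl2l11 (3.72 ± 0.0929), Bcl2 (3.36 ± 0.262) and Bbc3 (2.64 ± 0.833) overlapped from neighbour to neighbour, above Bid (1.503 ± 0.126). Bcl2 thus held the second rank in quiescent McSC and the eighth in melanocytes, where Bak1 and Pmaip1 held the third and the fourth. Some ranks depend on the length used: with the mean length of coding transcripts Bax (82.6) stood above Bcl2 (70.7) in quiescent McSC and Bax (106) above Mcl1 (77.8) in melanocytes. In melanocytes Pmaip1 was then the sixth, below Bcl2l1 and Bcl2l2, and Bcl2 the ninth.

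Summed per length, the survival genes made up 88.5% and 89.6% of the 10-gene total in quiescent McSC and 47.6%, 44.2% and 42.7% in melanocytes. The survival sum was 469 and 527 CPM per kb in quiescent McSC and 71.2, 73.5 and 79.02 CPM per kb in melanocytes. Mcl1 alone made up 74.9% and 76.7% of the total in quiescent McSC. Without Mcl1 the survival share was still apart, at 54.5% and 55.1% against 26.5%, 20.9% and 19.1%. The sum of the 6 death genes was 60.6 and 61.5 CPM per kb in quiescent McSC against 78.3, 92.7 and 106 CPM per kb in melanocytes. Within it, Bax and Bak1 together stood at 40.1 and 41.2 against 58.0, 66.3 and 86.1 CPM per kb. The 4 BH3-only genes summed to 20.6 and 20.3 CPM per kb in quiescent McSC and 20.3, 26.4 and 19.9 CPM per kb in melanocytes, so that their summed level overlapped although Bcl2l11, Bbc3 and Pmaip1 each differed. These sums and shares are descriptions of libraries and carry no test.

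**Figure D3:**
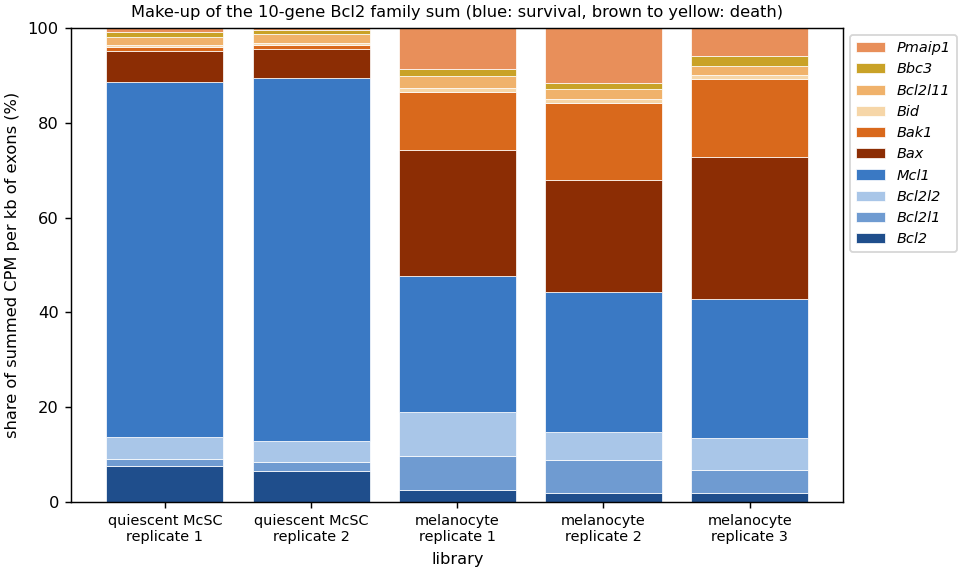
Share of each gene in the summed CPM per kb of exons of the 10 members, 1 bar per library (blue shades, survival genes; brown to yellow, death genes). The blue part covers 88.5% and 89.6% in quiescent McSC and 42.7% to 47.6% in melanocytes, and Mcl1 is the largest block in quiescent McSC.

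Ratios inside a library do not depend on how libraries are scaled. Per kb, the Mcl1 transcript exceeded that of its partner Pmaip1 102-fold and 196-fold in the quiescent McSC libraries and 3.36-fold, 2.56-fold and 4.91-fold in the melanocyte libraries. The ratio of Mcl1 to Bak1 was 75.0 and 74.3 in quiescent McSC and 2.35, 1.82 and 1.76 in melanocytes. In both pairs the members were called in opposite directions. The same held for Bcl2l11 to Pmaip1, with ratios of 2.43 and 4.86 against 0.289, 0.199 and 0.331. Bcl2 to Bax read 1.14 and 1.08 against 0.0916, 0.0795 and 0.0597. For Bcl2l11, which was itself higher in quiescent McSC, the gap was narrower: Mcl1 to Bcl2l11 was 41.9 and 40.3 against 11.6, 12.8 and 14.8, and Bcl2 to Bcl2l11 was 4.19 and 3.37 against 0.987, 0.818 and 0.909. The ratio of Mcl1 to Bcl2 overlapped between the groups (9.99 and 11.9 against 11.8, 15.7 and 16.3), while the groups were separate for the other pairs given here. Length divides each ratio by the same factor in every library and so sets its size: with the mean coding transcript length, an alternative chosen after seeing the data, Mcl1 to Bcl2l11 was 23.4 and 22.5 against 6.50, 7.18 and 8.29, and Bcl2 to Bcl2l11 was 2.67 and 2.15 against 0.630, 0.522 and 0.580. Bcl2l11 to Pmaip1 was then 5.32 and 10.6 against 0.633, 0.436 and 0.725. Bcl2 to Bax was then 0.880 and 0.832 against 0.0707, 0.0614 and 0.0461. Which of Bcl2 and Bax was higher in quiescent McSC thus depends on the length used.

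**Figure D4:**
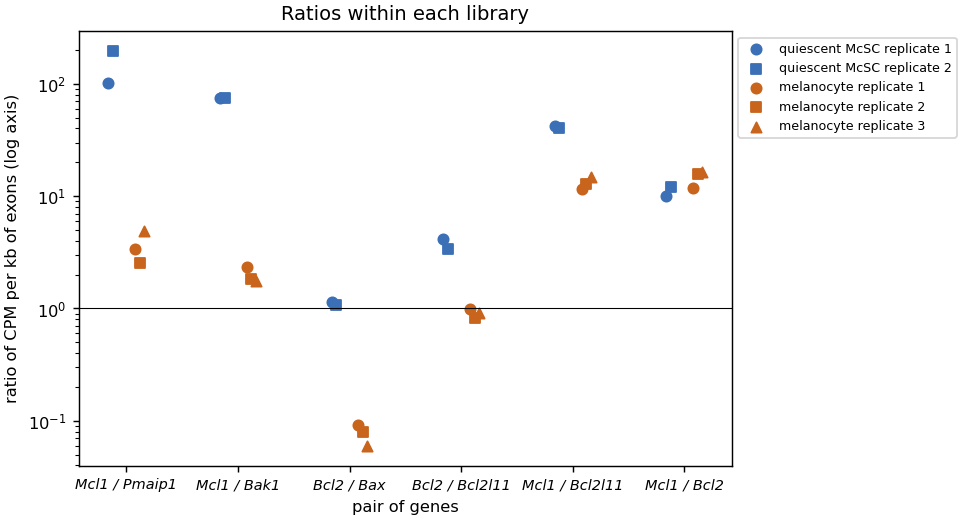
Ratios of CPM per kb of exons (log axis) between pairs of members within each library, quiescent McSC in blue and melanocytes in orange; the line marks equal levels. Mcl1 to Pmaip1 and Mcl1 to Bak1 are separated most, and Mcl1 to Bcl2 overlaps between the groups. In quiescent McSC, the side of the line for Bcl2 to Bax depends on the length used.

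Other Bcl2 family genes were called in both directions. Of 14 further genes 11 passed the filter, and 2 were higher in melanocytes, 2 were higher in quiescent McSC and 7 passed in neither direction (median log2 fold change -0.10). Bok, a relative of Bax and Bak1, was higher in melanocytes (13.3 and 16.9 CPM in quiescent McSC against 39.5, 38.0 and 42.8 CPM; 1.41 ± 0.16, edgeR adjusted p = 0.000767). Bmf, a BH3-only gene linked to loss of anchorage, was higher in quiescent McSC (26.7 and 30.3 CPM against 10.4, 9.72 and 8.34 CPM; -1.58 ± 0.17, edgeR adjusted p = 0.00066). Bcl2l13 was slightly higher in melanocytes (0.54 ± 0.13, edgeR adjusted p = 0.0149), and was not called when quiescent McSC replicate 1 (adjusted p = 0.0588) or 2 (0.11) was left out. Bik, a BH3-only gene, was higher in quiescent McSC at a low level (1.77 ± 0.308 against 0.376 ± 0.141 CPM), and with quiescent McSC replicate 2 left out it was not called (adjusted p = 0.0519). Bad, the BH3-only target of growth factor kinases, read 27.9 ± 2.25 and 31.6 ± 1.16 CPM (0.18, 95% interval -0.12 to 0.48), and was called toward melanocytes with library size only (0.40, edgeR adjusted p = 0.0305). The mitophagy receptors Bnip3 and Bnip3l stood at 22.6 and 174 CPM in the quiescent libraries and 17.1 and 139.7 CPM in melanocytes and were not called, although DESeq2 (adjusted p = 0.0214) and limma-voom (0.0304) called Bnip3. Without melanocyte replicate 2 Bnip3l was called toward quiescent McSC (-0.48, edgeR adjusted p = 0.0153). Bcl2a1b, Hrk, Bcl2l14 and Bcl2l15 were all under 1.1 CPM in every library and not called. The survival paralogs Bcl2a1a and Bcl2a1d were too low to test (0 and 10 counts over the quiescent libraries, 5 and 3 over the melanocyte libraries), and with Bcl2a1b they are near-identical copies whose reads may be split. Bcl2l10 had no count in any library. At 3 counts per library this allows up to 0.0241 to 0.171 CPM of the raw library totals, without TMM, for counting error only.

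Downstream of the mitochondria, calls went in both directions. Of 12 genes of the apoptosome and caspases 3 were higher in melanocytes, 4 were higher in quiescent McSC and 5 passed in neither direction (median -0.04). Apaf1, the scaffold that cytochrome c activates, was the widest apart, with 107 and 130.3 CPM in quiescent McSC against 26.5, 33.3 and 47.2 CPM in melanocytes (-1.74 ± 0.24, edgeR adjusted p = 0.00179). Diablo, the antagonist of caspase inhibitors, was also higher in quiescent McSC (-0.68 ± 0.12), and the executioner caspase gene Casp6 was higher in melanocytes (1.20 ± 0.13). Dffa, the inhibitor subunit of the apoptotic nuclease, was called toward melanocytes (0.83), and was not called without the quiescent McSC replicate 1 library (adjusted p = 0.0501). Of the 4 listed inhibitor of apoptosis genes 2 were higher in quiescent McSC and 2 not called. Birc3 read 148 and 112 CPM against 10.4, 8.84 and 9.997 CPM (-3.74 ± 0.16, edgeR adjusted p = 5.03e-05), and Birc2 differed by -1.40 ± 0.11. Birc5, of the same family, was listed with the S, G2 and M phase genes, all of which were higher in melanocytes. In the death receptor arm 5 of 9 genes were called toward quiescent McSC and 1 toward melanocytes (median -0.40). Ripk1, a kinase that joins survival and death signals of TNF receptors, read 417 and 478 CPM against 29.2, 33.1 and 34.6 CPM (-3.79 ± 0.14), and Cflar, the inhibitor of caspase 8, differed by -0.80 ± 0.11. Tnfrsf21, a death receptor gene, stood at 40.5 ± 2.49 against 5.09 ± 2.70 CPM. Tnfrsf10b, the mouse TRAIL receptor, was the gene of this arm called toward melanocytes (0.78), and was not called when counts were thinned to the shallowest library (adjusted p = 0.142) or without the second quiescent McSC library (0.121).

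Genes that act on the members went in both directions or were not called. Of all genes tested, 55.4% were called. Of 8 transcription factors known to drive BH3-only genes 5 were called toward quiescent McSC and 2 toward melanocytes (median -1.48). Ddit3 (CHOP), which can induce Bcl2l11, and Atf4, an integrated stress factor, were higher in quiescent McSC (-2.48 ± 0.14 and -2.11 ± 0.13), and E2f1 was higher in melanocytes (3.73 ± 0.19). Foxo4, a FOXO factor held back by growth factor signals, was also higher in quiescent McSC (-1.32 ± 0.12). Trp73, a p53 relative (1.12), was not called when the first (adjusted p = 0.127) or the second (0.0604) quiescent McSC library was left out. Of 7 genes for turnover of MCL1 protein 1 was higher in melanocytes, 2 were higher in quiescent McSC and 4 passed in neither direction (median 0.05), with the ubiquitin ligase gene Btrc at -0.98 ± 0.14. The deubiquitinase gene Usp9x (-0.39) and the ligase gene Trim17 (1.03) were not called without the first quiescent McSC library (adjusted p = 0.147 and 0.0909), and Usp9x was also not called with library size only (0.187), after thinning (0.0602), without the second quiescent McSC library (0.0816) or without the third melanocyte library (0.0765). Mitf, named here after its values were seen, read 1177 and 1033 CPM in the quiescent libraries and 43.7, 120.5 and 139 CPM in melanocytes. Its part in the difference of Bcl2 was not tested.

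Immediate early and cell dissociation genes were higher in the same group as the survival genes Bcl2, Mcl1 and Bcl2l2 and the death genes Bcl2l11 and Bbc3. Of these 23 listed genes 22 were called toward quiescent McSC and 1, Egr3, toward melanocytes (median -2.61). Their summed levels were 31253 and 46850 CPM against 3093 to 3463 CPM. Atf3 alone read 4321 and 5617 CPM against 71.1, 110.1 and 67.1 CPM. The part of these listed genes in the differences of the members called toward quiescent McSC was not tested. S, G2 and M phase genes were higher in the same group as Bak1 and Pmaip1: 20 of 20 were higher in melanocytes (median 4.52), with summed levels of 213 and 292 CPM against 3836 to 3922 CPM, and their part was not tested either.

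The genes whose pattern over the 5 libraries was most like that of a member were found among 8493 others of at least 20 CPM, by the root mean square difference of centred log2 CPM. For Bcl2 they were Gab1 (0.0666), Plscr1 (0.120) and Slc5a3 (0.127). Gab1, an adaptor of growth factor receptors, read 572 and 531 CPM in quiescent McSC against 45.9, 42.5 and 46.2 CPM in melanocytes. For Mcl1 they were Crebrf (0.0374), Idh2 (0.0632) and Hsd17b11 (0.105). Crebrf, a regulator of the stress factor CREB3, read 257 and 279.7 CPM against 28.8, 31.7 and 35.0 CPM. With 2 groups of 2 and 3 libraries, likeness of this kind rests mainly on the group difference.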

How the data were processed

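The authors deposited 1 table of raw counts per gene and library, whole numbers listed by Entrez identifier. Per the submitters' processing notes, STAR 2.5.2a, Salmon 0.8.2 and the build mm10 were used; the program that made the gene counts is not given in the sources used here. RefSeq symbols (GRCm38.p6) were found for 24045 of 24100 identifiers. Counts were filtered with filterByExpr, scaled by TMM and tested in edgeR 4.0.16 (R 4.3.3) with the quasi-likelihood test, two-sided, on all 5 libraries without covariates, with Benjamini-Hochberg adjustment over 16953 genes. The procedure was tested on simulated counts in which only a small share of genes changed. That setting was unlike the broad change seen here, so it does not test the scaling. CPM are TMM-normalised; lengths are GENCODE M21 exon unions, or the mean of coding transcripts. The SE is the absolute log2 fold change over the root of F. Replicates are separate pools of animals per the labels. The members, the gene lists and their tests were chosen with earlier results of these data known. Named were all members, all other family genes, up to 3 called genes per pathway list and direction, up to 2 abundant genes per marker list and the most similar genes; Mitf, Ggnbp1, small-count and uncalled genes were named after their values were seen. Of the list genes, 2 are not in the table. Some genes that the rule names are not reported here. Alternatives were other scalings, filters, DESeq2 1.42.0, limma-voom (limma 3.58.1), a replicate block, thinning to the shallowest library and leaving out each library. Depth differed 7.11-fold between libraries, so melanocyte replicate 3 is the least precise.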

Additional observations from a re-analysis of the deposited data

How the results depend on the processing

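Over 14 alternatives, the members called higher in quiescent McSC numbered 4 or 5 of 10 and those higher in melanocytes 2 or 3. Of the 7 called members, Bcl2, Bcl2l2, Mcl1, Bcl2l11, Bak1 and Pmaip1 kept their call and direction in all 14, and Bbc3 lost its call in 4, each named above. In 1 of the 14 the 20 most abundant genes were left out of the library sizes. TMM undid that change and the calls were those of the main test, so it is no separate check. Leaving out 1 library at a time gave 4 to 5 members higher in quiescent McSC and 2 in melanocytes, and over all genes 2955 (without quiescent McSC replicate 2) to 4857 higher in quiescent McSC and 3310 to 5148 in melanocytes, against 4448 and 4937 with all libraries. Values near zero changed sign: Bid (0.18 with library size only, 0.13 and -0.20 without quiescent McSC replicates 1 and 2), Bcl2l1 (-0.17 and 0.47 likewise), Bcl2l14 (0.13 with library size only, 0.68 and -0.60 without quiescent McSC replicates 2 and 1, 0.02 leaving out melanocyte replicate 2) and Bcl2l15 (0.11 with library size only, 0.063 and -0.32 without melanocyte replicates 3 and 2). None of these was called, and the cause was not tested. The survival share was 91.7% and 58.7% in quiescent McSC and melanocytes without division by length, 85.4% and 43.7% with the mean coding transcript length, and 54.8% and 22.1% without Mcl1. Leaving out 1 library gave 88.5% to 89.6% and 43.5% to 45.9%. The labels give the groups the same replicate numbers but no shared litter, batch or day. Deviations of same-numbered libraries from their group means had correlations of 0.04 and -0.06. With 2 quiescent McSC libraries, whose deviations mirror each other, these values are not separate and cannot show or exclude a shared batch. With the replicate block 3933 genes were called toward melanocytes and 3479 toward quiescent McSC, 7 of the 7 called members kept their call, and Bcl2l15 (0.055) and Pmel (-0.19), both not called, changed sign. The block also ended the calls of Bcl2l13 (adjusted p = 0.0607), Tnfrsf10b (0.0704), Trp73 (0.0689), Trim17 (0.0645) and Usp9x (0.173).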

Other observations

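Genes of the p53 pathway, which induces Bax, Bbc3 and Pmaip1 in many cells, divided evenly. Of 15 genes (Trp53, its regulators and targets) 6 were called toward each group and 3 passed in neither direction (median log2 fold change -0.01, edgeR adjusted p below 0.05 as the call). Trp53 itself read 98.1 and 86.7 CPM in the quiescent libraries and 163.9, 155 and 157 CPM in melanocytes (0.78 ± 0.11). Phlda3, a p53-induced inhibitor of AKT, and Zmat3, a p53-induced RNA-binding protein, were higher in melanocytes (2.14 ± 0.20 and 1.60 ± 0.15). Cdkn1a, the cell cycle inhibitor p21, and Mdm2, the ubiquitin ligase of p53, were higher in quiescent McSC (-2.06 ± 0.19 and -1.26 ± 0.10). Perp, 1 of the 15, is also in the keratinocyte marker list.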
